A study of Gossypium herbaceum with 12 samples.

Results

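Among 24029 probe sets measured in cotton root, 57 were raised at least 4-fold by drought in the sensitive genotype RAHS-14 while the watered roots of RAHS-14 and of the tolerant genotype Vagad lay within 2-fold of each other. They were chosen on 9 Affymetrix cotton arrays from the 3 groups other than droughted Vagad. The rule took intensities floored at 16 and put on the log2 scale, and asked for a mean drought change in RAHS-14 of at least 2 log2 units (81 probe sets, 0.337%), all 3 droughted RAHS-14 arrays above all 3 watered ones, a mean intensity of at least 64 in droughted RAHS-14, and a difference between the watered genotypes of under 1 log2 unit. The drought change in RAHS-14 and the difference between watered genotypes are therefore given below as descriptions without a test. The rule used no droughted Vagad array, and the response of Vagad to drought is what was tested. The watered Vagad arrays enter both the rule and that response.

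The plants were Gossypium herbaceum, a diploid cotton, grown in pots in a glasshouse until about 1 month old. Watered pots of both genotypes were irrigated daily. In droughted pots water was withheld so that soil moisture stayed low. The labels and the study's methods differ in how long the plants went without water. Each of the 4 groups (RAHS-14 watered, RAHS-14 droughted, Vagad watered, Vagad droughted) held 3 biological replicates with 1 array each, from whole roots, so each genotype was represented by a single line. In such bulk tissue, fewer cells of a type and less RNA per cell cannot be told apart.

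Droughted Vagad replicates 1 and 2 stood apart from the other arrays. Their median intensities were 322 and 345.3 against 60.8 to 74.2 on the other 10 arrays, and their mean correlations with the rest were 0.610 and 0.461 against 0.974 to 0.983. Droughted Vagad replicate 3 had an ordinary median of 70.9, so the response of Vagad was tested on that array against the 3 watered Vagad arrays. Its 3′ to 5′ ratio for the actin control probe sets was 41.3. The watered arrays and those of droughted RAHS-14 gave 12.5 to 20.2. For the ubiquitin control replicate 3 gave 4.35 against 1.75 to 4.76 on those arrays, and for a further control, ss1, 8.73 against 3.70 to 8.20. On droughted Vagad replicates 1 and 2 the ratios were 9.23 and 5.425 (actin), 0.825 and 1.462 (ubiquitin) and 0.511 and 0.330 (ss1). The part of these ratios in the results was not tested. The summed intensity of 4 probe sets matched to chlorophyll-binding and photosystem proteins and rubisco activase, a check for green tissue, was 3216 to 3450 in watered RAHS-14, 1462 to 1562 in droughted RAHS-14, 1720 to 1942 in watered Vagad and 629 on droughted Vagad replicate 3. None of the 4 was below the floor there or among the 57, and the part of this fall in the results was not tested. Only 1 probe set matched the fixed root markers, a putative peroxidase, so the labelled tissue could be checked only weakly.

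Plant roots that lose water accumulate compatible solutes such as proline, move carbon between sugars and starch, make chaperones that hold proteins in a soluble state, and adjust the hormone abscisic acid, which closes stomata and switches on many dehydration genes. These are general plant responses, described chiefly in Arabidopsis. Gene names here are those of the closest Arabidopsis proteins in the hit columns of the study's supplementary lists. Of the 57 members, 17 had such a hit, and 15 of these hits gave a usable gene name. A reference table gave locus symbols without a described function to 6 members, 1 of them also named, and 35 had neither a hit nor a symbol. The lists contain probe sets the study selected for a difference between the genotypes and reported as up-regulated in RAHS-14, watered or droughted. The named members are therefore not a sample of the 57. The sequence of no member was given in the sources used here.

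Most of the 57 probe sets rose with drought in Vagad as well. On replicate 3, 46 of 57 were called higher than in watered Vagad and none was called lower (limma on 10 arrays, Benjamini-Hochberg adjusted p under 0.05 and a change of at least 2-fold). Across all probe sets tested, 3.19% were called higher and 2.8% lower. The median change of the members was 1.91 log2 units, against 0.00 for all probe sets, and every member lay above 0, from 0.04 to 4.41. The array stood above all 3 watered Vagad arrays for 56 of the 57 and below them for none, where 33.6% of all probe sets stood above and 23.4% below. At least 2-fold higher values were found for 47 members and 5.72% of all probe sets. With each array centred on its median, 590 of all probe sets were called higher and 1076 lower, against 767 and 673 without centring, and 45 members were called higher. In 28 members the rise was at least 2 log2 units, in 19 it was between 1 and 2, and in 10 it was under 1.

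**Figure D1:**
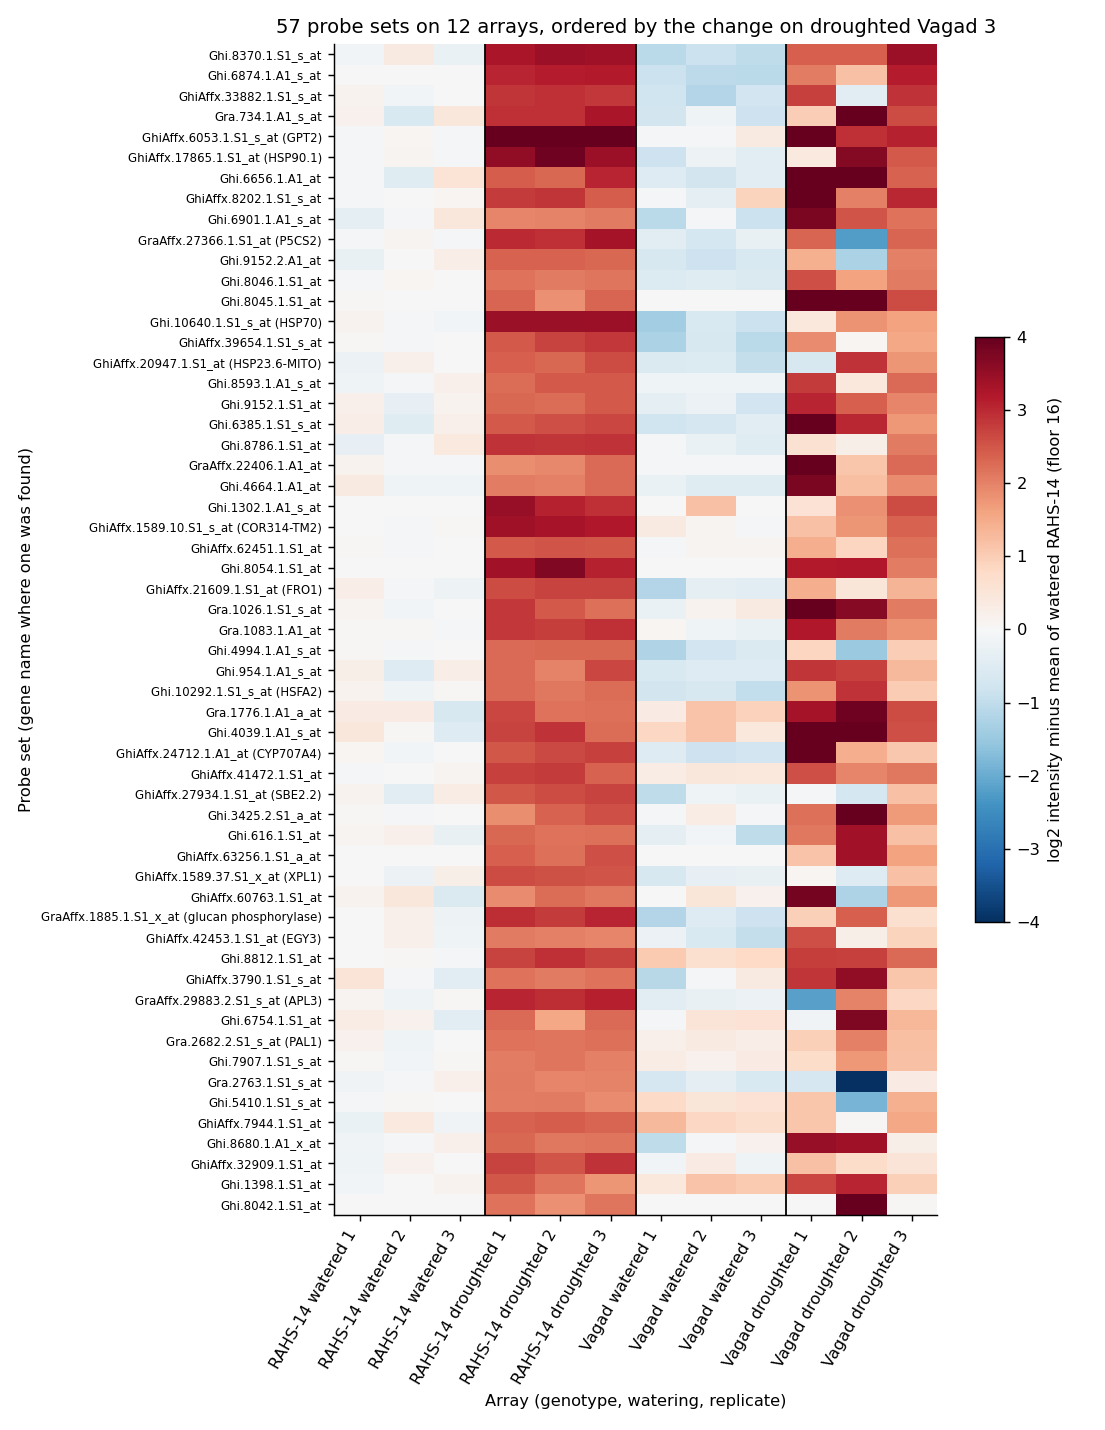
Log2 intensity of the 57 members (rows) on the 12 arrays (columns), each row given as the difference from its mean in watered RAHS-14, with the colour scale running from -4 to 4 and rows ordered by the change on droughted Vagad replicate 3. The droughted RAHS-14 columns are red by the rule, and the last column, which the rule did not use, is higher than the watered Vagad mean in all 57 rows, by 0.04 to 4.41 log2 units.

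The fit took its spread from 9 arrays, since droughted Vagad entered as a single array, whose spread was taken to equal theirs. The SEs and adjusted p-values given below for single members come from this fit and hold no spread among droughted Vagad replicates. With the spread taken from the 3 watered Vagad arrays alone, 19 of the 57 were called higher, and with the 3 droughted Vagad arrays fitted together against the watered ones limma called none of the 57 and none of all probe sets. At an unadjusted p under 0.05 with a 2-fold minimum, that last fit gave 38 of the 57, against 10.9% of all probe sets.

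The size of the rise in RAHS-14 and the share called in Vagad went together. The Vagad change itself was read on arrays that the RAHS-14 change did not use, but the calls took part of their spread from the RAHS-14 arrays. Where the other conditions of the rule were kept and the RAHS-14 change was between 0.5 and 1 log2 unit, 96 of 987 probe sets were called higher in Vagad (9.73%). Between 1 and 1.5 the count was 73 of 268 (27.2%), and between 1.5 and 2 it was 38 of 81 (46.9%). Inside the rule, 20 of 30 members with a change from 2 to 2.5 were called (66.7%), and 26 of 27 with a change of 2.5 or more (96.3%). Median Vagad changes in these 5 ranges were 0.37, 0.74, 1.34, 1.74 and 2.22 log2 units. The ranges were set after the values were known, and probe sets can share a transcript, so no test was made over them. The Vagad change and the limit on the watered difference share the watered Vagad arrays.

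**Figure D2:**
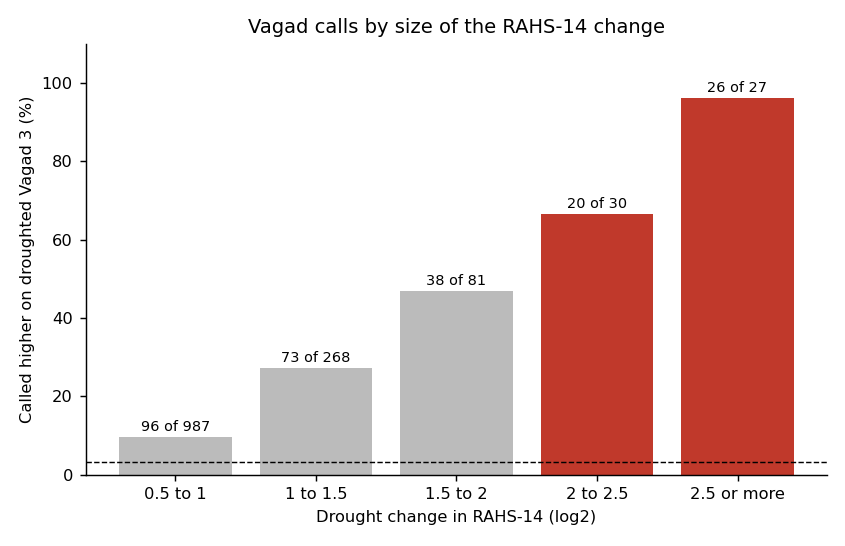
Percent of probe sets called higher on droughted Vagad replicate 3 (vertical axis) in 5 ranges of the RAHS-14 drought change in log2 units (horizontal axis), with the counts over the bars, members in red and the dashed line at the 3.19% of all probe sets. The share is 9.73% in the lowest range and 96.3% in the highest.

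Among the 57 themselves the changes in both genotypes had a Pearson r of 0.49, against 0.40 over all probe sets. Both are descriptions over probe sets of the same arrays. The rise was smaller in Vagad than in RAHS-14 for 42 members and at least as large for 15, and the median member rose in Vagad by 74.3% of its RAHS-14 log2 change. Since the members were picked for a large value in RAHS-14, that value is raised by the choice and the difference between genotypes was not tested. On intensity, replicate 3 was below all 3 droughted RAHS-14 arrays for 45 members and reached at least the lowest of them for 12. None of these 12 was a member with a gene name. Names came only from probe sets the study reported as up-regulated in RAHS-14, so that absence was favoured by how the names were obtained.

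**Figure D3:**
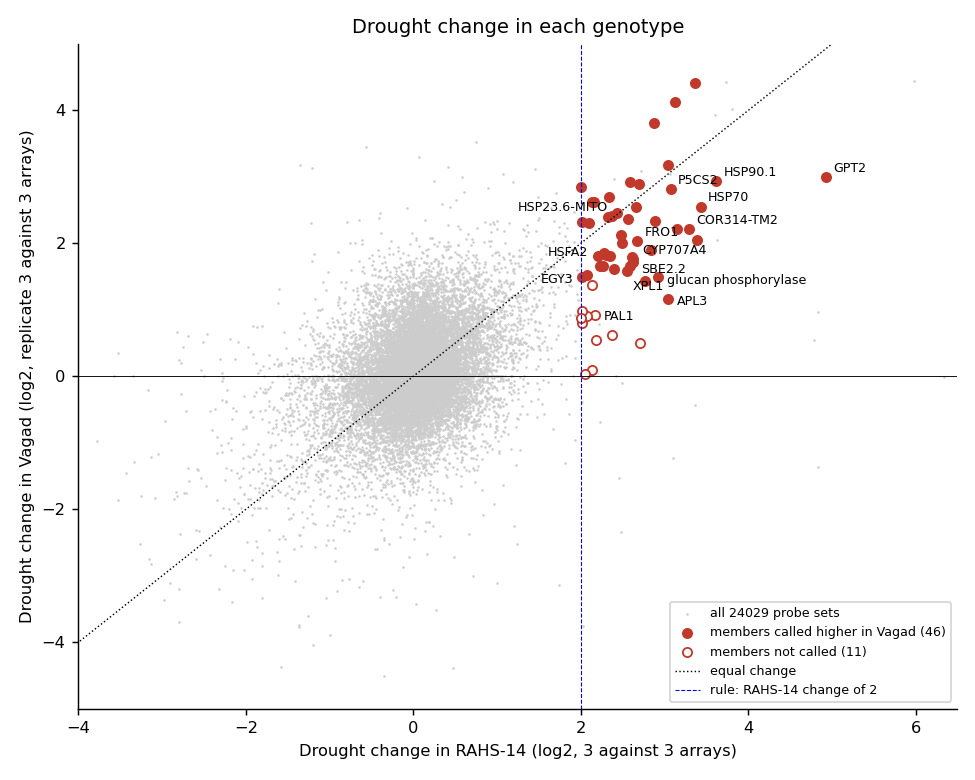
Drought change in Vagad on replicate 3 (vertical axis, log2) against drought change in RAHS-14 (horizontal axis, log2) for all 24029 probe sets in grey and the 57 members in red, filled where called higher in Vagad (46) and open where not (11), with points beyond the axes left out. The members start at 2 on the horizontal axis by the rule, 42 lie below the dotted line of equal change, and GPT2 is the member farthest to the right.

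Carbohydrate enzymes and carriers gave the largest single change in RAHS-14. GPT2, which in Arabidopsis carries glucose 6-phosphate into plastids, where it feeds starch synthesis, read 5.39, 17.4 and 10.8 in watered RAHS-14, 607, 431 and 479.6 in droughted RAHS-14, 14.7, 10.5 and 21.2 in watered Vagad and 139.7 on droughted Vagad replicate 3 (422 and 124 on replicates 1 and 2). Watered roots of both genotypes were at or near the floor and all droughted arrays were far above it. The rise was 4.93 log2 units in RAHS-14, the highest of the 57, and 2.99 ± 0.22 (SE) in Vagad (adjusted p = 2.2e-04), and both are understated where values were set to the floor. Another probe set with the same GPT2 hit, GhiAffx.13472.1.S1_at, was brighter when watered, changed by 1.07 in RAHS-14 and by -0.45 ± 0.20 in Vagad (adjusted p = 0.20), and was outside the rule, so a single name covered unlike readings.

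APL3, a large subunit of ADP-glucose pyrophosphorylase, the enzyme that makes the sugar donor for starch, read 286, 237 and 272 in watered RAHS-14 and 2201, 2062 and 2257 in droughted RAHS-14. In Vagad it read 194, 215 and 226 when watered and 472 on droughted replicate 3 (59.1 and 1039.7 on replicates 1 and 2). The RAHS-14 groups did not overlap, while droughted Vagad lay above the watered arrays on replicates 2 and 3 and below them on replicate 1. The change was 3.04 log2 units in RAHS-14 and 1.16 ± 0.12 in Vagad on replicate 3 (adjusted p = 0.0012). With each array centred on its median, APL3 was no longer called in Vagad.

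SBE2.2, a starch branching enzyme, read 568, 391 and 635 in watered RAHS-14, 2892, 3183 and 3363 in droughted RAHS-14, 259, 462 and 431 in watered Vagad and 1182 on droughted Vagad replicate 3 (509 and 318 on replicates 1 and 2). Droughted RAHS-14 and droughted Vagad replicate 3 were above all watered arrays, whereas droughted Vagad replicate 2 lay among the watered Vagad arrays. Changes were 2.59 log2 units in RAHS-14 and 1.67 ± 0.38 in Vagad (adjusted p = 0.028), a call that was lost without droughted RAHS-14 replicate 2. Another probe set with this hit, GhiAffx.734.1.S1_at, changed by 0.92 in RAHS-14 and by -0.10 ± 0.19 in Vagad (adjusted p = 0.88).

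A putative glucan phosphorylase, an enzyme that releases glucose 1-phosphate from starch-like glucans, read 329, 379 and 286 in watered RAHS-14 and 2530.1, 2272 and 2706 in droughted RAHS-14. It read 145, 229 and 186 in watered Vagad and 519 on droughted replicate 3 (631 and 1721 on replicates 1 and 2). That is 7.58-fold in RAHS-14 and 2.82-fold in Vagad, with an SE of 0.26 log2 units (adjusted p = 0.010). All droughted RAHS-14 arrays were above all others, the nearest being droughted Vagad replicate 2. For this enzyme the other probe set, Ghi.9069.1.S1_s_at, just outside the rule at 1.78 in RAHS-14, rose by 1.80 ± 0.07 in Vagad (adjusted p = 6.2e-06). So both probe sets were called in Vagad, where for GPT2 and SBE2.2 only the member was.

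The keyword list for sugar and starch matched 13 probe sets with a hit, the glucan phosphorylases not among them, and 3 were members. Of the 13, 6 were called higher in Vagad, 0 lower and 7 were not called (p under 0.05 and 2-fold, limma), with a median Vagad change of 0.80 log2 units. In RAHS-14, 8 of the 13 were at least 2-fold higher under drought and 0 as much lower. All keyword lists were matched only among the 542 probe sets with a hit, which the study had selected on these arrays. Of those 542, 16.6% were at least 2-fold higher and 8.12% as much lower in RAHS-14, against 2.5% and 2.89% of all probe sets, and 12% were called higher and 9.04% lower in Vagad. The list counts are therefore descriptions of selected probe sets.

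Chaperones made up the next group. HSP90.1, an inducible chaperone of signalling proteins, read 72.6, 81.6 and 72.2 in watered RAHS-14, 880.2, 1129 and 804 in droughted RAHS-14, 42.3, 65.6 and 55.6 in watered Vagad and 410.3 on droughted Vagad replicate 3 (98.5 and 962 on replicates 1 and 2). Replicate 3 was well above all watered arrays and below all droughted RAHS-14 arrays. The changes were 3.62 log2 units in RAHS-14 and 2.93 ± 0.27 in Vagad (adjusted p = 5.9e-04).

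HSP70, which binds unfolded proteins using ATP, read 283, 244 and 237 in watered RAHS-14 and 2756, 2773 and 2735 in droughted RAHS-14, where the 3 arrays nearly coincided. In Vagad the watered arrays read 97.2, 165 and 140.3 and droughted replicate 3 read 769 (339 and 883 on replicates 1 and 2). HSP70 was thus lower in Vagad in both conditions, by 0.96 log2 units when watered, close to the limit of the rule. It rose by 3.44 in RAHS-14 and by 2.55 ± 0.27 in Vagad (adjusted p = 0.0011).

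HSP23.6-MITO, a small heat shock protein of mitochondria, read 117, 159 and 139 in watered RAHS-14, 717, 670.0 and 837 in droughted RAHS-14, 91.6, 93.2 and 70.9 in watered Vagad and 465 on droughted Vagad replicate 3 (88.5 and 1019.8 on replicates 1 and 2). Its changes were nearly the same, 2.43 log2 units in RAHS-14 and 2.46 ± 0.23 in Vagad (adjusted p = 6.2e-04), and it was the only named member whose Vagad change reached that in RAHS-14. HSFA2, a heat stress transcription factor that in Arabidopsis turns on small heat shock genes, read 147, 118 and 139 in watered RAHS-14 and 643, 580.5 and 632 in droughted RAHS-14. It read 80.6, 85.4 and 68.3 in watered Vagad and 274 on droughted replicate 3 (462 and 996 on replicates 1 and 2), a 4.6-fold change in RAHS-14 and one of 1.82 ± 0.16 log2 units in Vagad (adjusted p = 4.5e-04).

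Small heat shock proteins were matched by 9 probe sets, of which 1 was a member, and all 9 were at least 2-fold higher under drought in RAHS-14. In Vagad 6 were called higher, 0 lower and 3 not called, with a median change of 1.77 log2 units. The other chaperones and heat shock factors were matched by 12 probe sets, 3 of them members. Of these 12, 5 were called higher in Vagad, 2 lower and 5 not called, and 5 were at least 2-fold higher in RAHS-14.

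**Figure D4:**
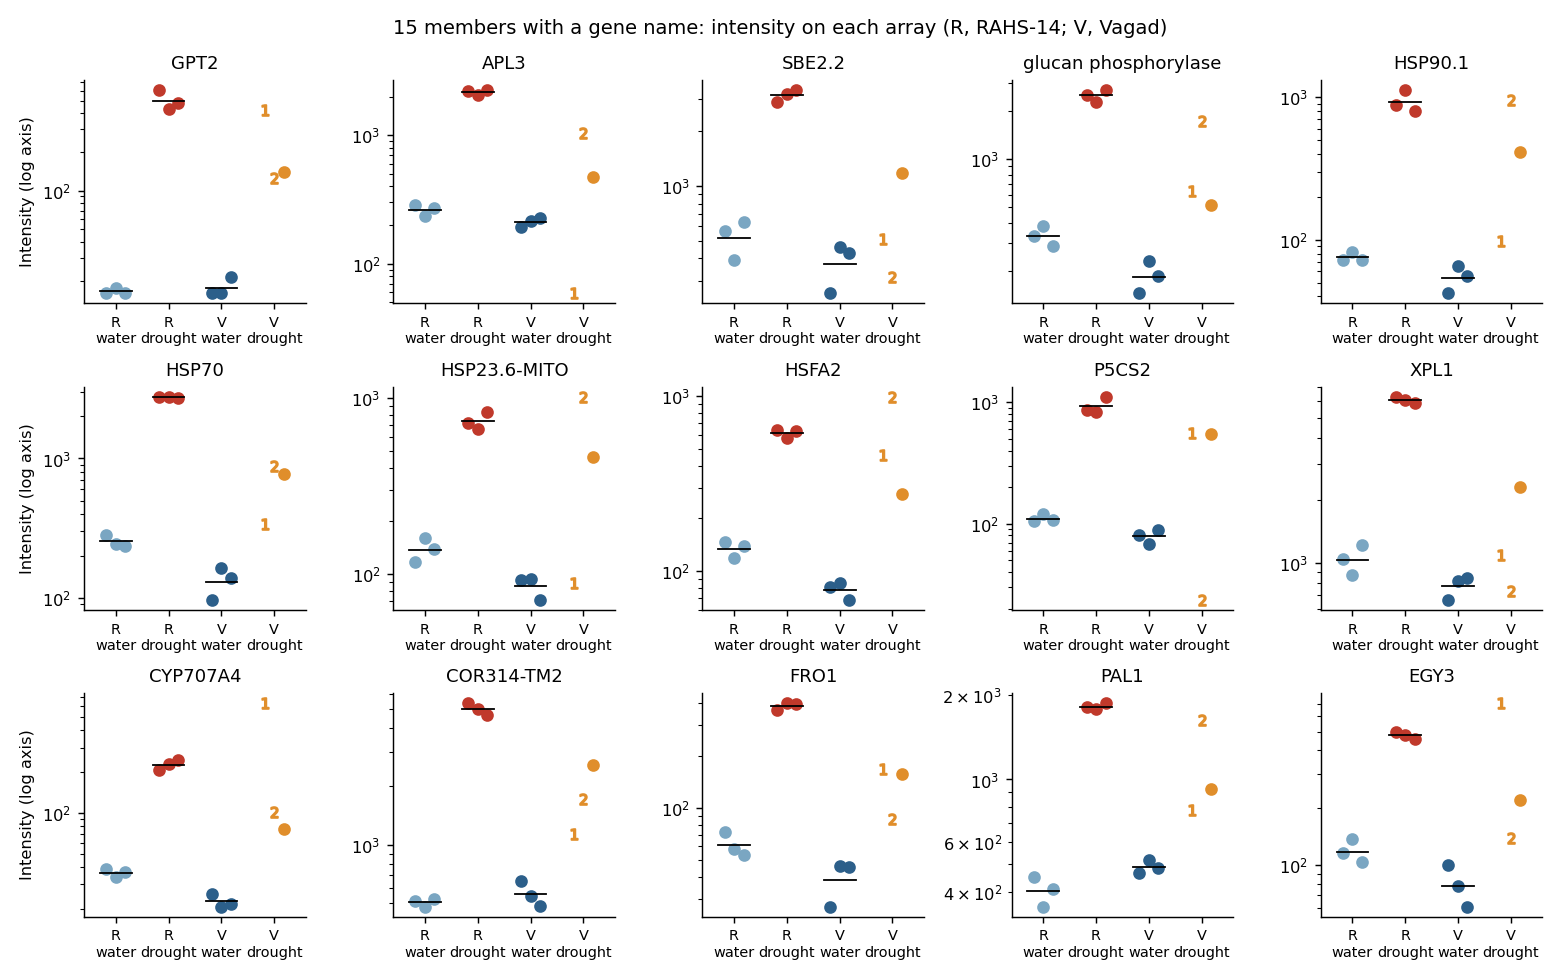
Intensity on each of the 12 arrays (vertical axes, log scale, each panel with its own range, values under the floor of 16 set to it) for the 15 members with a gene name, with circles for arrays, black lines for group means on the log scale, and the numerals 1 and 2 for droughted Vagad replicates 1 and 2, which stood apart. In every panel the circle of droughted Vagad replicate 3 lies above the watered Vagad circles and below the droughted RAHS-14 circles. Names came only from probe sets the study reported as up-regulated in RAHS-14, so the place below droughted RAHS-14 was favoured by that choice.

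P5CS2, a form of the enzyme that begins proline synthesis from glutamate, read 105, 119 and 107 in watered RAHS-14, 867, 828 and 1115 in droughted RAHS-14, 80.2, 68.0 and 89.2 in watered Vagad and 552 on droughted Vagad replicate 3 (558 and 23.61 on replicates 1 and 2). The change was 3.08 log2 units in RAHS-14 and 2.81 ± 0.21 in Vagad on replicate 3, with replicate 2 below every watered array (adjusted p = 1.8e-04). It was the only member among 9 probe sets matched to amino acid enzymes and carriers, and the only one of the 9 that was called in Vagad.

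CYP707A4, an abscisic acid 8′-hydroxylase that breaks the hormone down, read 38.7, 34.0 and 37.1 in watered RAHS-14, 204, 228 and 244 in droughted RAHS-14, 25.6, 20.7 and 21.7 in watered Vagad and 76.7 on droughted Vagad replicate 3 (629 and 101 on replicates 1 and 2). It was dim in watered roots and rose by 2.62 log2 units in RAHS-14 and by 1.77 ± 0.15 in Vagad (adjusted p = 3.6e-04), a call lost with a floor of 64. Of 3 probe sets matched to abscisic acid genes, CYP707A4 was the only member and the only one called in Vagad. No member was matched to dehydrins, late embryogenesis abundant proteins or other dehydration genes, but only 17 of the 57 members had a hit and could be matched. Of the 5 probe sets matched by those keywords, 4 of them to RD22 or BURP-domain proteins, 3 were called lower in Vagad, 0 higher, and 0 were as much as 2-fold higher in RAHS-14.

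COR314-TM2, named in Arabidopsis as a cold-regulated membrane protein, was among the brightest members. It read 517, 482 and 526 in watered RAHS-14, 5338, 4999 and 4635 in droughted RAHS-14, 655, 546 and 487 in watered Vagad and 2585 on droughted Vagad replicate 3 (1133 and 1714 on replicates 1 and 2). The watered genotypes overlapped and the droughted values did not, with rises of 3.29 log2 units in RAHS-14 and 2.21 ± 0.16 in Vagad (adjusted p = 1.7e-04).

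XPL1, a phosphoethanolamine N-methyltransferase that makes the precursor of phosphatidylcholine, read 1039, 876 and 1218 in watered RAHS-14, 6316, 6056 and 5907 in droughted RAHS-14, 662, 818 and 844 in watered Vagad and 2323 on droughted Vagad replicate 3 (1093 and 729.6 on replicates 1 and 2). Its rise was 2.56 log2 units in RAHS-14 and 1.59 ± 0.20 in Vagad (adjusted p = 0.0025). A second XPL1 probe set, GhiAffx.1589.93.S1_s_at, outside the rule with 1.15 in RAHS-14, rose by 1.85 ± 0.08 in Vagad (adjusted p = 1.4e-05), so the order of the genotypes differed between probe sets of the same name.

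FRO1, in Arabidopsis a subunit of mitochondrial complex I whose loss weakens cold responses, read 72.6, 58.0 and 53.4 in watered RAHS-14, 369, 399.8 and 396 in droughted RAHS-14, 27.0, 46.3 and 45.8 in watered Vagad and 158 on droughted Vagad replicate 3 (167 and 85.8 on replicates 1 and 2). The changes were 2.67 log2 units in RAHS-14 and 2.03 ± 0.32 in Vagad (adjusted p = 0.0069). EGY3, a plastid relative of the site-2 proteases, read 116, 137 and 104 in watered RAHS-14, 499, 482 and 455 in droughted RAHS-14, 101, 77.6 and 60.9 in watered Vagad and 219 on droughted Vagad replicate 3 (702 and 138 on replicates 1 and 2). Its changes were 2.02 and 1.49 ± 0.27 (adjusted p = 0.012).

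PAL1, phenylalanine ammonia-lyase, which opens the pathway to lignin and other phenylpropanoids, was the only named member not called in Vagad. It read 452, 354 and 409 in watered RAHS-14, 1801, 1780.1 and 1860.2 in droughted RAHS-14, 467, 517 and 483 in watered Vagad and 927 on droughted Vagad replicate 3 (781 and 1630.0 on replicates 1 and 2). Replicate 3 was above the watered arrays, and the change of 0.92 ± 0.13 log2 units passed the adjusted p (0.0036) but fell short of 2-fold, against 2.17 in RAHS-14.

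The largest Vagad changes belonged to probe sets without a gene name, though names came only from the study's lists for RAHS-14. Ghi.8370.1.S1_s_at read 129.8, 179.8 and 118 in watered RAHS-14, 1344, 1502 and 1477 in droughted RAHS-14, 65.7, 77.0 and 68.5 in watered Vagad and 1489 on droughted Vagad replicate 3 (728 and 729 on replicates 1 and 2). Replicate 3 lay within the range of droughted RAHS-14 and replicates 1 and 2 below it, while watered Vagad was lower than watered RAHS-14, giving 3.36 log2 units in RAHS-14 and 4.41 ± 0.23 in Vagad (adjusted p = 2.8e-05). Ghi.6874.1.A1_s_at was arranged in a like way at a higher intensity, with 753, 725 and 733 in watered RAHS-14, 6121, 6521 and 6595 in droughted RAHS-14, 406, 357 and 347 in watered Vagad and 6436 on droughted Vagad replicate 3 (3073 and 1671 on replicates 1 and 2). Its changes were 3.12 and 4.12 ± 0.09 (adjusted p = 2.1e-07). GhiAffx.33882.1.S1_s_at read 107, 89.7 and 95.2 in watered RAHS-14, 709, 737 and 689.7 in droughted RAHS-14, 56.2, 42.8 and 56.9 in watered Vagad and 720.5 on droughted Vagad replicate 3 (639 and 71 on replicates 1 and 2), with changes of 2.88 and 3.81 ± 0.17 (adjusted p = 1.4e-05). In all 3 watered Vagad was lower than watered RAHS-14 by close to the limit of the rule, and watered Vagad enters both that difference and the Vagad change.

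Among unnamed members, Ghi.8370.1.S1_s_at also had one of the 3 largest RAHS-14 changes, with Ghi.8054.1.S1_at and Ghi.1302.1.A1_s_at. Ghi.8054.1.S1_at read 15.8, 16.2 and 3.76 in watered RAHS-14, 163, 211 and 137 in droughted RAHS-14, 6.25, 3.01 and 6.43 in watered Vagad and 66.0 on droughted Vagad replicate 3 (146 and 149 on replicates 1 and 2). All watered Vagad arrays were below the floor, so replicate 3 was at least 4.13-fold higher (adjusted p = 8.2e-04). Ghi.1302.1.A1_s_at read 15, 9.09 and 2.09 in watered RAHS-14, 177, 134 and 120.1 in droughted RAHS-14, 15.5, 36.1 and 15.2 in watered Vagad and 98.0 on droughted Vagad replicate 3 (23.8 and 57 on replicates 1 and 2). Drought raised it at least 8.99-fold in RAHS-14 on mean intensity and by 2.22 ± 0.47 log2 units in Vagad (adjusted p = 0.021).

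Of the 11 members not called in Vagad, 4 passed the adjusted p with a change under 2-fold, and 7 did not pass it. The 4 were PAL1, Ghi.7907.1.S1_s_at, Ghi.5410.1.S1_s_at and Gra.2763.1.S1_s_at, with Vagad changes of 0.92, 0.91, 0.80 and 0.87 log2 units. GhiAffx.3790.1.S1_s_at rose by 1.37 ± 0.58 but watered Vagad ranged from 30.1 to 84.0 (adjusted p = 0.17). Ghi.8042.1.S1_at, chosen here after its values were seen, was the member nearest to no change. It read 1.43, 1.13 and 4.40 in watered RAHS-14, 72.8, 56.8 and 70.4 in droughted RAHS-14, 0.48, 0.26 and 0.51 in watered Vagad and 16.5 on droughted Vagad replicate 3 (12.2 and 367 on replicates 1 and 2), just over the floor, so a change of 0.04 ± 0.12 says little of values below it. Ghi.1398.1.S1_at, also picked out afterwards, was the only member not above all watered Vagad arrays on replicate 3, with 252, 413 and 383 watered and 366 droughted. Ghi.1398.1.A1_at, whose name holds the same number, lay just outside the rule at 1.995 in RAHS-14 and changed by 2.30 in Vagad. Readings of that number were thus unlike.

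Near the thresholds, the members with the smallest RAHS-14 change were Gra.2763.1.S1_s_at, Ghi.6901.1.A1_s_at and Ghi.5410.1.S1_s_at, at 2.01 each, and just outside were Ghi.1398.1.A1_at at 2.00, Ghi.6849.1.A1_at at 1.97 and Ghi.8686.2.A1_s_at at 1.96. Their Vagad changes were 0.87, 2.86 and 0.80 inside and 2.30, 1.15 and 1.24 outside. At the limit on the watered difference, Ghi.6874.1.A1_s_at (-0.998), Ghi.8370.1.S1_s_at (-0.99) and GhiAffx.39654.1.S1_s_at (-0.99) were inside, and GhiAffx.2461.1.A1_s_at (-1.03), Ghi.1479.1.S1_at (-1.14) and Ghi.1234.1.S1_s_at (1.23) outside. Under the same rule without that limit, 9 further probe sets were at least 2-fold lower in watered Vagad, 8 of them called higher in Vagad with a median change of 3.10 log2 units. Another 15 were at least 2-fold higher in watered Vagad, of which 2 were called higher and 4 lower, with a median of -0.38. As the watered Vagad arrays set both the grouping and the change, these values are given side by side with no test.

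Members differed widely in brightness. Group means ran from 2.32 to 1137 (median 90.6) in watered RAHS-14, from 66.7 to 6412 (median 506) in droughted RAHS-14 and from 0.415 to 1189 (median 70.4) in watered Vagad, and droughted Vagad replicate 3 ran from 16.5 to 6436 (median 230.3). All 3 watered arrays were at the floor for 3 members in RAHS-14 and for 6 in Vagad, so that their changes are lower bounds. The median SD of log2 intensity among watered Vagad arrays was 0.21 over the members and 0.14 over all probe sets. Of the 57 names, 30 carry a suffix (_s_at, _x_at or _a_at) that marks probes that could also bind other transcripts. The 57 names hold 55 distinct cluster numbers, so the members may stand for fewer than 57 genes. Ghi.9152.1.S1_at and Ghi.9152.2.A1_at share a number, as do the probe sets of XPL1 and COR314-TM2, whose hits differ. The Ghi.9152 pair rose alike in Vagad, by 2.40 ± 0.26 and 2.70 ± 0.20 log2 units (adjusted p = 0.0014 and 2.2e-04).

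The droughted Vagad replicates that stood apart pointed mostly the same way, but so did their arrays as a whole. On replicate 1, 50 members lay above all watered Vagad arrays and 3 below, against 64.2% and 27.8% of all probe sets. On replicate 2 the counts were 48 and 7, against 65% and 29.4%. Values at least 2-fold above the watered mean were read for 43 and 42 members on these arrays, and for 47.7% and 51.3% of all probe sets. Median changes were 2.54 and 2.18 log2 units for the members and 0.87 and 1.08 for all probe sets. On all 3 droughted Vagad arrays, 42 of the 57 lay above every watered one, and 18.2% of all probe sets did.

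**Figure D5:**
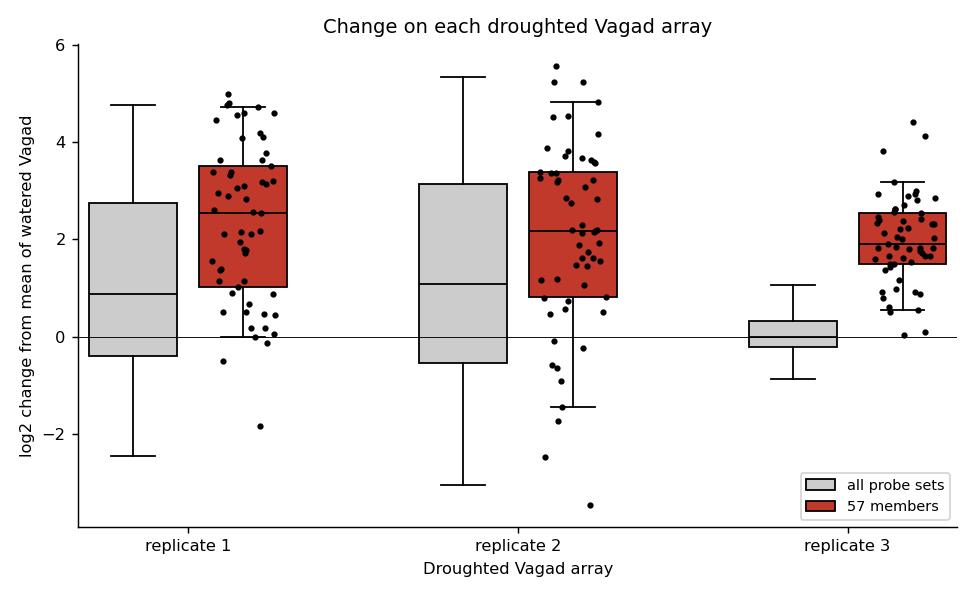
Log2 change from the mean of watered Vagad (vertical axis) on each droughted Vagad array (horizontal axis) for all probe sets (grey) and the 57 members (red, with a point for each), where boxes span the quartiles, lines the medians and whiskers the 5th to 95th percentiles. On replicate 3 the median is 1.91 for the members and 0.00 for all probe sets, and on replicates 1 and 2 the grey boxes are wide and shifted, with medians of 0.87 and 1.08.

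Single genes could differ between these arrays. P5CS2 was close to replicate 3 on replicate 1 and below every watered array on replicate 2, APL3 was below them on replicate 1 and far above on replicate 2, and GPT2 was far above watered Vagad on both.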

How the data were processed

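RNA of 12 root samples was hybridised to Affymetrix cotton arrays. The deposited intensity values were made by the authors with MAS5, on a linear scale, for 24132 probe sets, of which 103 control probe sets were left out and 24029 tested. The probe sets were designed from other cotton species. Intensities were floored at 16, put on the log2 scale and not normalized further. Droughted Vagad replicate 3 was compared with watered Vagad in limma 3.58.1 (R 4.3.3) on 10 arrays, without droughted Vagad replicates 1 and 2, with Benjamini-Hochberg adjustment over all probe sets and calls at adjusted p under 0.05 and 2-fold. The fit was tested on simulated data in which the single droughted Vagad array was given the spread of the other groups. That assumption was therefore not checked. The members and gene lists were chosen with earlier results of these data known. By rule, the text names members with a gene name that had one of the 12 largest RAHS-14 changes or the 8 largest or 8 smallest Vagad changes or stood in a stress list, which took in all 15, the 3 unnamed members with the largest change in each genotype, and the 3 members and 3 other probe sets nearest each threshold. Hits came from 2 columns of the study's RAHS-14 lists that held a hit for 542 probe sets. A further column was not used, because it repeated the hit of a neighbouring probe set. The number of arrays limits the precision. The authors' fold changes and p-values in those lists were not used.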

Additional observations from a re-analysis of the deposited data

Results flagged for a closer look

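Droughted Vagad replicates 1 and 2 were left out of the 10-array fit behind the calls and entered only alternative fits, and most members were high on them, as were most probe sets. On replicate 1, 50 of the 57 lay above all 3 watered Vagad arrays, and on replicate 2, 48 did, while 64.2% and 65% of all probe sets did so on the same arrays.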

How the results depend on the processing

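Of the 57 members, 46 were called higher in Vagad, and under every setting tried, those named next included, none was called lower. The count was 30 with probe sets above the median mean only, where fewer were tested, 19 with the 4 arrays of watered Vagad and droughted replicate 3, 0 with the 6 Vagad arrays in one fit and 0 by the methods' t-test on all 6 Vagad arrays after Benjamini-Hochberg (34 at its unadjusted p). The cause was not tested. By the same t-test at its unadjusted p, 969 of all 24029 probe sets were called higher. The other settings gave 32 to 50, among them 40 with replicates 1 and 2 in place of replicate 3, which was added after seeing the data and called 11201 of all probe sets higher. Leaving out one array gave 42 to 46. Replicate numbers did not pair the samples (correlations of deviations -0.06 to 0.04 for the same number, -0.07 to 0.07 for different ones), and the replicate block gave 43, with SBE2.2 lost. The rule found 57 members, 138 with a RAHS-14 change of at least 1.5, 27 with at least 2.5 and 30 with a watered difference under 0.5, 40 to 57 under other scalings and floors, and 52 to 60 with one array left out. The median Vagad change of 1.91 was 1.37 with a floor of 64, which shortens the changes of dim probe sets by construction, and with each array centred on its median it was 1.74 where that of all probe sets was -0.17. Of the 15 named members, 7 lost their call with all 12 arrays in one fit, 12 in the 4-array fit and 14 with the 6 Vagad arrays, and none reversed in any setting.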

Other observations

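Among other keyword lists, none of 21 probe sets matched to ubiquitin and the proteasome and none of 27 matched to ribosomal proteins and translation factors was a member. Only 17 of the 57 members had a hit and could be matched to any list. In Vagad, 1 of the 21 was called higher and 3 lower, and 0 of the 27 higher and 2 lower. Of 40 probe sets matched to transcription factors, HSFA2 was the only member, with 6 called higher and 4 lower in Vagad. Of 29 matched to transport, GPT2 was the only member, with 2 called higher and 2 lower. Of 8 matched to the cell wall, none was a member, 4 were at least 2-fold lower under drought in RAHS-14 and 1 as much higher, and in Vagad 0 were called higher and 1 lower. Of 5 matched to redox enzymes none was a member, and 1 was called higher in Vagad. These lists too were matched only among the 542 selected probe sets with a hit, of which 12% were called higher and 9.04% lower in Vagad.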
